A study of Heterocephalus glaber and Mus musculus with 9 samples.

Results

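Chromatin-modifying enzymes and sirtuins were followed in the spleens of naked mole-rats (NM-R, Heterocephalus glaber) and mice. Members were the rows of the expression table whose gene symbol begins with Kdm, Kmt, Hdac, Sirt, Dnmt, Tet, Setd, Ezh, Prdm, Kat or Brd followed at once by the number of the family member, which gave 67 genes in 11 families, of 12946 genes in all. Spleen RNA of 9 animals was sequenced, 1 library per animal. The 3 mice were wild-type C57Bl/6N males, 2 months old. The 6 healthy NM-Rs (strain given as african naked mole-rat) were kept warmer than the mice and were grouped by spleen size into 3 with small spleens (ssNM-R, all male, 30, 26 and 23 months old) and 3 with large spleens (lsNM-R, a male of 24 months, a female of 29 months and a male of 23 months). Species, age, housing and the genome used for counting all differ between mice and NM-Rs and cannot be told apart. In the text the mice are always listed in the order 1, 2, 3, the ssNM-Rs in the order 2, 3, 6 and the lsNM-Rs in the order 1, 4, 5.

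The DNA of a cell is wound around histones, and enzymes write, read and erase small chemical groups on both. Acetyl groups are added to histone lysines by Kat enzymes, removed by Hdac enzymes and sirtuins, and bound by the bromodomains of Brd proteins. Methyl groups are added to lysines by Ezh, many Kmt and Setd and some Prdm proteins and removed by Kdm enzymes. Dnmt enzymes methylate cytosines, and Tet enzymes oxidize that mark. Sirtuins need NAD and are widely studied in ageing and metabolism. In blood-forming tissue, Dnmt3a, Tet2 and Ezh2 are known as regulators of stem and progenitor cells, and Prdm1 as a driver of plasma cell formation.

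Values are normalized read counts, the reads of a gene divided by 1 size factor per library. They are not divided by gene length, so levels are compared between spleens for 1 gene and not between genes, and a difference in the length of the counted NM-R and mouse gene models would enter each fold between species. Summed over the 12946 genes, the libraries held between 7815326 and 18387599 reads (median 10965902). Those of ssNM-R 6, lsNM-R 4 and lsNM-R 5 were the deepest, with 18219644, 16883689 and 18387599 reads, so depth was not balanced between the NM-R cohorts. Of the 67 members, 57 had at least 100 reads in every spleen. The lowest, Prdm6, had 43 reads over all 9 spleens. Among the NM-Rs, ssNM-R 6 held the lowest value for 29 members, and values without it are given beside several results. Spleen identity was checked with marker genes of B cells, T cells, erythroid cells and macrophages, and no marker in the table was at 0 in either species.

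Compared to mice, the enzymes went both ways in NM-R spleens, with Sirt7, Kdm8, Hdac6 and Sirt5 rising most and Setd7, Kdm7a, Tet3 and Hdac9 falling most. Of the 67 members, 22 were higher in NM-Rs and 27 lower (limma on log2 of the normalized count plus 1, adjusted p under 0.05 over all 12946 genes), and 18 did not pass. Over all genes 39.7% were higher and 38.8% lower, while the members' shares were 32.8% and 40.3%. The counts of single families and gene lists given below are to be read beside these all-gene shares and were not tested against them. With a change of at least 2-fold as well, 10 members were higher and 10 lower (14.9% each), against 26.2% and 25.9% of all genes. The median log2 fold change was -0.11 over the members, from -3.14 for Setd7 to 1.96 for Sirt7, and 0.0097 over all genes. In 47 members the 6 NM-R spleens did not overlap with the 3 mouse spleens (70.1%, against 72.6% of all genes).

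Both NM-R cohorts were set against the same 3 mice, so the comparisons share their controls. In ssNM-Rs 23 members were higher and 27 lower, where 38% and 37.5% of all genes were called. In lsNM-Rs 22 were higher and 24 lower, where 38.1% and 37% of all genes were called. By gene, 21 members were higher and 24 lower in both cohorts, 5 passed in ssNM-Rs only (Kat7, Prdm2, Setd5 and Sirt2 among them), 1 in lsNM-Rs only (Prdm8), and 0 passed in opposite directions. The share over all genes was not computed for these counts. With the shares above and the same mice in both comparisons, they are not shown to be particular to the enzymes. A direct test of the cohorts called 0 of the 67 members, as described further on, so the calls made in a single cohort are not shown to differ between cohorts.

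Markers of cell types also differed between the species, and in bulk spleen fewer cells of a type and less RNA per cell cannot be told apart. Of 5 markers of dividing cells in the table (of 11 listed) 5 were higher in NM-Rs, and their summed normalized counts lay between 6186 and 12857 in mice, 24315 and 34288 in ssNM-Rs and 22730 and 28871 in lsNM-Rs. Of 9 erythroid markers (of 10) 9 were higher, with sums between 24102 and 68082 in mice, 138199 and 204916 in ssNM-Rs and 140330 and 196823 in lsNM-Rs. Of 9 B cell markers (of 10) 9 were lower, with sums between 57217 and 58231 in mice, 2713 and 5176 in ssNM-Rs and 3232 and 7291 in lsNM-Rs. No marker of these lists was at 0 in a group. T cell markers were lower for 10 of 10 and plasma cell markers for 5 of 6 in the table (of 7 listed). Granulocyte markers were higher for 6 of 7 in the table (of 11 listed) and lower for 1. Smooth muscle markers were higher for 3 of 6 and lower for 1. Macrophage markers were higher for 1 of 6 in the table (of 8 listed) and lower for 4, and megakaryocyte markers for 2 and 2 of 4 (of 7 listed). Mouse 1 had the lowest sums of dividing cell and erythroid markers (6186 and 24102). It held the lowest mouse value for 18 members and the highest for 33. Dnmt1, Ezh2 and Kmt5a, higher in NM-Rs, and Sirt4, Sirt6 and Kmt5c, lower in NM-Rs, were among the 18. The part of these cells in the results was not tested.

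**Figure D1:**
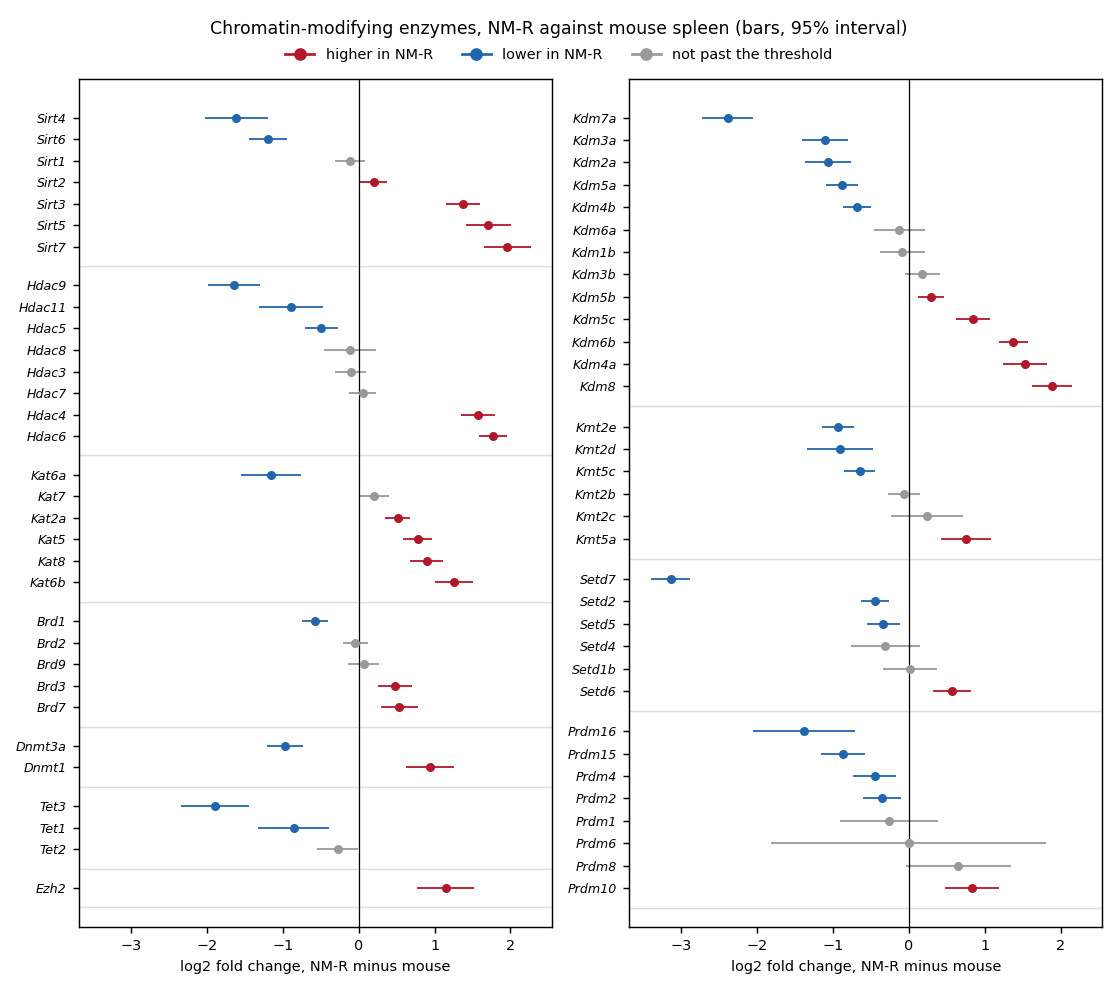
Log2 fold change of 65 of the 67 enzymes between 6 NM-R and 3 mouse spleens (points) with its 95% interval (bars), grouped by family, in red where higher in NM-Rs, in blue where lower and in grey where the adjusted p was 0.05 or more. Setd7 at -3.14 and Sirt7 at 1.96 mark the ends, and every family with more than 1 member but that of the Tet enzymes holds members on both sides.

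Of 7 sirtuins, 4 were higher and 2 lower in NM-Rs and 1 did not pass. Sirt7, a nucleolar deacetylase linked to ribosomal RNA synthesis, stood at 1734, 1734 and 1943 in mice, 9128, 7170 and 5986 in ssNM-Rs and 6363, 7757 and 6041 in lsNM-Rs. Every NM-R spleen was far above every mouse spleen, and the means of 1804 ± 121 (SD, n = 3) in mice and 7074 ± 1221 (SD, n = 6) in NM-Rs were 3.92-fold apart (log2 fold change 1.96 ± 0.14 (SE), limma adjusted p = 6.09e-07). The gene lies at chr11:120479686-120486554 in mm9, where 2.41% of its exon bases are shared with Mafg on the same strand.

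The 3 mitochondrial sirtuins moved apart. Sirt3, the main mitochondrial deacetylase, stood at 199.7, 176 and 172 in mice, 535, 450.4 and 469.5 in ssNM-Rs and 451, 491 and 458 in lsNM-Rs, with a log2 fold change of 1.38 ± 0.10 (SE), limma adjusted p = 7.82e-07. Sirt5, which removes succinyl and related acyl groups, stood at 91.3, 81.5 and 78.7 in mice, 273, 264 and 279 in ssNM-Rs and 233, 319 and 293 in lsNM-Rs, with a log2 fold change of 1.71 ± 0.13 (SE), limma adjusted p = 1.07e-06. Both were higher in all 6 NM-R spleens, with means 2.60-fold and 3.30-fold those of mice. In the mouse annotation 13.6% of the exon bases of Sirt3 are overlapped on the other strand by Psmd13 and Ric8, and without a known strand setting such reads cannot be told apart. Sirt4, a mitochondrial sirtuin that restrains glutamine use, went the other way with 137, 148 and 158 in mice, 34.2, 46.5 and 51.8 in ssNM-Rs and 53.7, 59.9 and 43.9 in lsNM-Rs. Its NM-R values were all below the mouse values, and the mouse mean was 3.06-fold that of NM-Rs (log2 fold change -1.61 ± 0.19 (SE), limma adjusted p = 2.29e-05).

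Sirt6, a chromatin-bound deacetylase known for DNA repair and telomere upkeep, stood at 321, 347 and 345 in mice, 153, 137 and 164 in ssNM-Rs and 151, 136 and 139 in lsNM-Rs. The groups did not overlap, and the mouse mean was 2.30-fold the NM-R mean (log2 fold change -1.20 ± 0.11 (SE), limma adjusted p = 4.57e-06). Sirt1, the best studied nuclear sirtuin, stood at 583, 686 and 649 in mice, 574, 605 and 522 in ssNM-Rs and 633, 599 and 619.5 in lsNM-Rs. Mouse and NM-R spleens overlapped, and the log2 fold change of -0.11 (95% interval -0.31 to 0.09, adjusted p = 0.272) did not pass. Sirt2, a mainly cytoplasmic deacetylase of tubulin, stood at 1229, 1124 and 1167 in mice, 1404, 1398 and 1512 in ssNM-Rs and 1137, 1320 and 1317 in lsNM-Rs. Here the ranges overlapped as well and the log2 fold change of 0.20 ± 0.08 (SE), limma adjusted p = 0.0472 was just inside the threshold, and the call was lost under 10 of 20 alternatives, 7 of which left out a spleen (lsNM-R 4, lsNM-R 5, mouse 2, mouse 3, ssNM-R 2, ssNM-R 3 or ssNM-R 6, adjusted p between 0.0593 and 0.165).

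**Figure D2:**
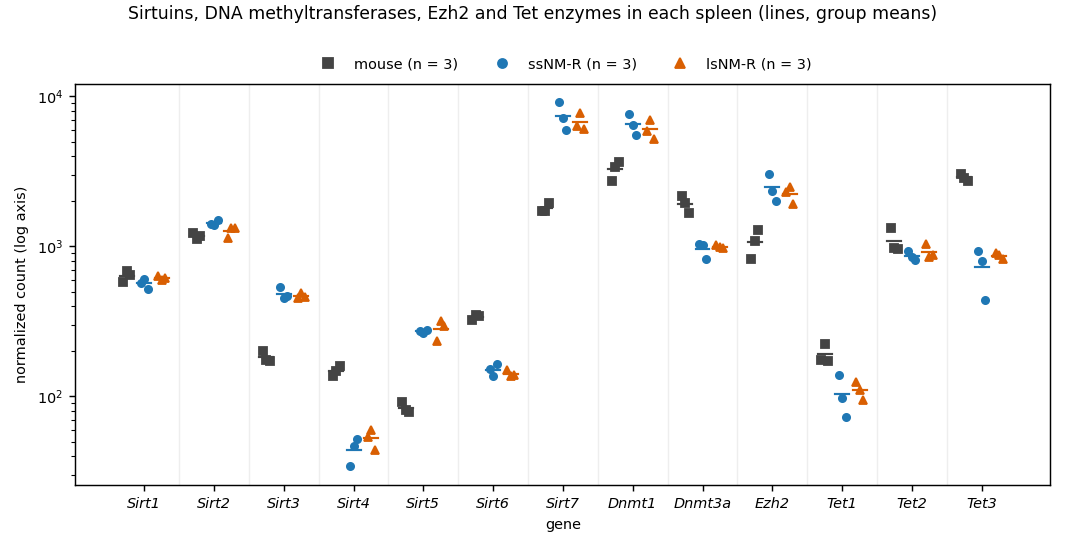
Normalized read count (log axis) of the sirtuins, DNA methyltransferases, Ezh2 and Tet enzymes in each of 9 spleens, with squares for mice, circles for ssNM-Rs, triangles for lsNM-Rs and lines at the group means. Sirt3, Sirt5, Sirt7, Dnmt1 and Ezh2 are higher in all 6 NM-R spleens than in any mouse, and Sirt4, Sirt6, Dnmt3a, Tet1 and Tet3 are lower.

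The 2 DNA methyltransferases in the table went in opposite directions. Dnmt1, which copies methylation to the new strand after replication, stood at 2747, 3378 and 3658 in mice, 7647, 6447 and 5510 in ssNM-Rs and 5926, 6987 and 5229 in lsNM-Rs. All NM-R spleens were above the mice, and the means differed 1.93-fold (log2 fold change 0.95 ± 0.14 (SE), limma adjusted p = 1.44e-04). Dnmt3a, which methylates new sites, stood at 2176, 1948 and 1673 in mice, 1042, 1027 and 830.4 in ssNM-Rs and 1020, 998 and 975 in lsNM-Rs. All NM-R spleens were below the mice (log2 fold change -0.97 ± 0.11 (SE), limma adjusted p = 1.53e-05), with the mouse mean 1.97-fold that of NM-Rs. Dnmt3b is not listed under that symbol and was not analysed here.

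Of the 3 Tet enzymes, which oxidize methylated cytosine, 0 were higher and 2 lower. Tet3 stood at 3050, 2871 and 2738 in mice, 938, 803 and 439.8 in ssNM-Rs and 905, 881 and 819 in lsNM-Rs, with the mouse mean 3.62-fold the NM-R mean (log2 fold change -1.89 ± 0.20 (SE), limma adjusted p = 1.09e-05). ssNM-R 6 was far below the other NM-Rs, and without it the log2 fold change was -1.73. Tet1 stood at 176, 225 and 173 in mice, 139, 97.6 and 72.7 in ssNM-Rs and 124, 111 and 94.1 in lsNM-Rs, again with all NM-Rs below all mice (log2 fold change -0.86 ± 0.21 (SE), limma adjusted p = 0.00376). Tet2 stood at 1325, 976 and 969 in mice, 934, 853 and 816 in ssNM-Rs and 1038, 845 and 874 in lsNM-Rs, where 1 mouse was above the rest and the groups overlapped. Its log2 fold change of -0.28 (95% interval -0.55 to -0.0033, adjusted p = 0.0601) did not pass, but it did without mouse 3 and without lsNM-R 1 (adjusted p = 0.0469 and 0.0359). With all libraries scaled to the same total Tet2 passed as well (-0.33, limma adjusted p = 0.0304).

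Among 13 genes in the table listed as partners of DNA methylation, 6 were higher and 4 lower in NM-Rs. The highest was Gadd45a, a DNA damage gene linked to demethylation, at 1.58 on the log2 scale, and the lowest was Apobec1, a cytidine deaminase, at -5.32. Tdg and Mbd4, glycosylases that excise altered bases, were at 1.13 and 1.06. Uhrf1, which brings Dnmt1 to replicated DNA, had 0.51 and did not pass (adjusted p = 0.0662).

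Ezh2, the catalytic subunit of polycomb repressive complex PRC2, which methylates H3K27, stood at 829, 1082 and 1291 in mice, 3062, 2359 and 2000 in ssNM-Rs and 2298, 2476 and 1914 in lsNM-Rs. The NM-R spleens were all above the mice, and the means differed 2.20-fold (log2 fold change 1.15 ± 0.17 (SE), limma adjusted p = 1.28e-04). Of 15 polycomb partners in the table (of 20 listed), 7 were higher and 7 lower. Its core partner Suz12 was at 0.80 and the other core partner Eed at -0.87. The highest of the list was Cbx2, a chromobox reader of the second complex, at 2.25. Ezh1 is not listed under that symbol and was not analysed here.

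Of 8 histone deacetylases 2 were higher, 3 lower and 3 did not pass. Hdac6, a cytoplasmic deacetylase of tubulin, stood at 466, 427 and 440.4 in mice, 1600, 1602 and 1352 in ssNM-Rs and 1510, 1489 and 1556 in lsNM-Rs. Spleens of each species lay close together and far from the other, 3.42-fold apart (log2 fold change 1.77 ± 0.08 (SE), limma adjusted p = 4.03e-08). Hdac4, a class IIa enzyme that shuttles between nucleus and cytoplasm, stood at 361, 316 and 280.0 in mice, 974, 1033 and 953 in ssNM-Rs and 987, 837 and 919 in lsNM-Rs, 2.98-fold higher in NM-Rs (log2 fold change 1.58 ± 0.10 (SE), limma adjusted p = 2.95e-07). The class IIa enzymes were not alike, for Hdac9 stood at 718, 690.2 and 666 in mice, 235, 165 and 165 in ssNM-Rs and 301, 279 and 211 in lsNM-Rs, with the mouse mean 3.06-fold that of NM-Rs (log2 fold change -1.65 ± 0.15 (SE), limma adjusted p = 4.56e-06). Hdac5 stood at 1467, 1317 and 1163 in mice, 953, 890.3 and 1056 in ssNM-Rs and 959, 874 and 862 in lsNM-Rs and was lower (log2 fold change -0.49 ± 0.10 (SE), limma adjusted p = 9.50e-04), while Hdac7 had a log2 fold change of 0.05 (adjusted p = 0.563). Hdac11, the lone class IV enzyme, stood at 245, 247 and 209 in mice, 122, 149 and 126 in ssNM-Rs and 169, 101 and 99.1 in lsNM-Rs, lower in NM-Rs (log2 fold change -0.89 ± 0.19 (SE), limma adjusted p = 0.00155). The class I enzymes Hdac3 (-0.11, adjusted p = 0.304) and Hdac8 (-0.11, adjusted p = 0.521) did not pass. Hdac1 and Hdac2 are not listed under those symbols and were not analysed here.

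Of 15 subunits in the table (of 19 listed) of the complexes in which deacetylases work, 9 were lower and 1 higher. Over all genes 38.8% were lower and 39.7% higher. The median log2 fold change was -0.29 for these subunits and 0.0097 over all genes. Chd3, a remodeller of the NuRD complex, was the lowest at -1.96 and Sap30, a subunit of the Sin3 complex, the highest at 1.33. Sin3a and Sin3b, the scaffolds of that complex, were at -0.29 and -0.44.

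To show the DNA in front of genes that moved apart, the 250 bases upstream of the first coding transcript are given for Hdac6, the higher member with the smallest p, and for Sirt5 and Sirt6, sirtuins called in opposite directions. The sequences are of the mouse genome (mm9, GENCODE M1 transcripts), are read 5′ to 3′ on the strand of the gene, and were chosen after the values were seen. Capitals mark matches to the searched motifs on either strand, which were the GATA words AGATAA and TGATAA, the E2F words TTTGGCGC, TTTCGCGC and TTCCCGC, and the CCAAT box CCAAT.
Hdac6 (chrX:7525016-7525265, minus strand): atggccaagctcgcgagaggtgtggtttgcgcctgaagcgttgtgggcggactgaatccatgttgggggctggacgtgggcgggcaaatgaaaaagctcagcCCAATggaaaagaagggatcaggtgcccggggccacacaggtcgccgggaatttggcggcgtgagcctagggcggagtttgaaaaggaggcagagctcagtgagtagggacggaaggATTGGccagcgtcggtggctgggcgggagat
Sirt5 (chr13:43465829-43466078, plus strand): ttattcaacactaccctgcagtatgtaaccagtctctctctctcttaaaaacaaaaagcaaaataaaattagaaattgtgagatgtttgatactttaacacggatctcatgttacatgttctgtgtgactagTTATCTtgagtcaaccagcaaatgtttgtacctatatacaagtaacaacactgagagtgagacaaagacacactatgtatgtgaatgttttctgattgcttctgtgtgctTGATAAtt
Sirt6 (chr10:81090543-81090792, minus strand): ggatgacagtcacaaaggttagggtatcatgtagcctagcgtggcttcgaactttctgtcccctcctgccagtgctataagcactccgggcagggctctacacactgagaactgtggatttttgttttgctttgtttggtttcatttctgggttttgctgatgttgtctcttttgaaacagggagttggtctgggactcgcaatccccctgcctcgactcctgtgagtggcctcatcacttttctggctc
The Hdac6 window holds 2 CCAAT boxes and 17 CpGs, the Sirt5 window 2 GATA words and 1 CpG, and the Sirt6 window 0 matches and 5 CpGs. None of the windows overlaps an annotated exon, and that of Sirt5 lies inside the span of the gene, whose first annotated base is further upstream.

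Windows were available for 55 of the 67 members. A GATA word was found in 3 of them (5.45%, Sirt2, Sirt5 and Kdm2a), against 15.6% of 22141 windows of all protein-coding genes. An E2F word was found in 3 (5.45%, Sirt4 and Hdac8 among them) against 5.57%, and a CCAAT box in 20 (36.4%) against 34.9%. The median number of CpGs was 15 in members and 9 in all windows. These letter matches are a description of the mouse windows, and NM-R sequence was not analysed here.

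Of 6 lysine acetyltransferases 4 were higher, 1 lower and 1 did not pass. The related enzymes Kat6a and Kat6b, known from blood stem cells and brain development, went in opposite directions. Kat6a stood at 3948, 3827 and 3581 in mice, 2021, 1711 and 1078 in ssNM-Rs and 1922, 2070 and 1613 in lsNM-Rs, with the mouse mean 2.18-fold that of NM-Rs (log2 fold change -1.16 ± 0.18 (SE), limma adjusted p = 1.63e-04). Kat6b stood at 815, 697 and 699 in mice, 1909, 1707 and 1448 in ssNM-Rs and 2004, 1902 and 1652 in lsNM-Rs, 2.40-fold higher in NM-Rs (log2 fold change 1.26 ± 0.11 (SE), limma adjusted p = 2.78e-06). The species did not overlap for either gene. Kat8, which acetylates H4K16, stood at 318, 401 and 366 in mice, 665, 692 and 682 in ssNM-Rs and 720.3, 621 and 649 in lsNM-Rs (log2 fold change 0.90 ± 0.10 (SE), limma adjusted p = 1.36e-05). Kat5, the Tip60 enzyme of the DNA damage response, stood at 730.5, 773 and 772 in mice, 1399, 1371 and 1477 in ssNM-Rs and 1349, 1104 and 1136 in lsNM-Rs (log2 fold change 0.78 ± 0.09 (SE), limma adjusted p = 1.51e-05), and 18% of its exon bases are overlapped by Rnaseh2c on the other strand. Kat2a, the SAGA acetyltransferase, was at 0.51. Kat7 stood at 1559, 1701 and 1859 in mice, 2233, 2016 and 2062 in ssNM-Rs and 1966, 1742 and 1773 in lsNM-Rs, and its log2 fold change of 0.20 (adjusted p = 0.051) was just outside the threshold, which it passed under 9 of 20 alternatives. Among 14 acetyltransferases and partners with other names in the table (of 23 listed) 2 were higher and 6 lower. They ranged from Ncoa3, a nuclear receptor coactivator, at -1.45 to Hat1, which acetylates newly made histones, at 1.43.

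Of 6 bromodomain proteins 2 were higher and 2 lower. Brd1, a scaffold of acetyltransferase complexes, was lower at -0.58, with 1869, 1872 and 1710 in mice, 1259, 1197 and 1150 in ssNM-Rs and 1282, 1254 and 1148 in lsNM-Rs. Brd7, a subunit of SWI/SNF remodelling complexes, stood at 1157, 1136 and 1319 in mice, 1428, 1570 and 1910 in ssNM-Rs and 1713, 2065 and 1832 in lsNM-Rs and was higher (log2 fold change 0.53 ± 0.11 (SE), limma adjusted p = 0.0013). Brd3 was higher at 0.48, with 1185, 1195 and 1165 in mice, 1930, 1699 and 1514 in ssNM-Rs and 1640, 1741 and 1405 in lsNM-Rs. The BET protein Brd2 (-0.05, adjusted p = 0.565) and Brd9 (0.07, adjusted p = 0.517) did not pass.

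Lysine demethylases, the largest family with 13 members, had 5 higher, 5 lower and 3 that did not pass. Kdm7a, which acts on H3K9 and H3K27, stood at 2836, 2928 and 2839 in mice, 531, 552 and 341 in ssNM-Rs and 727, 630.4 and 579 in lsNM-Rs. Its mouse values were 5.12-fold the NM-R values on average (log2 fold change -2.39 ± 0.15 (SE), limma adjusted p = 2.66e-07), and ssNM-R 6 was the lowest NM-R. Kdm8, a JmjC protein, stood at 125, 135 and 158 in mice, 549.7, 548 and 605 in ssNM-Rs and 521, 411 and 477 in lsNM-Rs, 3.72-fold higher in NM-Rs (log2 fold change 1.88 ± 0.12 (SE), limma adjusted p = 2.41e-07). These were the lowest and highest members of the family, and the species were far apart in both. Kdm4a, which acts on H3K9 and H3K36, stood at 2038, 1923 and 1979 in mice, 6684, 5885 and 4915 in ssNM-Rs and 5473, 6849 and 4868 in lsNM-Rs (log2 fold change 1.53 ± 0.13 (SE), limma adjusted p = 2.03e-06). Its relative Kdm4b was lower at -0.69. Kdm6b, an H3K27 demethylase induced in macrophages by inflammatory signals, stood at 1335, 1458 and 1275 in mice, 3685, 3515 and 3268 in ssNM-Rs and 3753, 3650 and 3267 in lsNM-Rs (log2 fold change 1.38 ± 0.08 (SE), limma adjusted p = 2.28e-07). Kdm3a, an H3K9 demethylase, stood at 1505, 1454 and 1355 in mice, 695, 647 and 672 in ssNM-Rs and 881, 596 and 549 in lsNM-Rs (log2 fold change -1.11 ± 0.14 (SE), limma adjusted p = 3.76e-05), and Kdm2a, an H3K36 demethylase that binds CpG islands, at 3865, 3935 and 3684 in mice, 1901, 1965 and 1355 in ssNM-Rs and 2198, 2017 and 1658 in lsNM-Rs (log2 fold change -1.07 ± 0.13 (SE), limma adjusted p = 4.08e-05).

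The H3K4 demethylases of the Kdm5 group split, with Kdm5a lower at -0.89 and Kdm5c and Kdm5b higher at 0.84 and 0.29. Kdm5c and the H3K27 demethylase Kdm6a are X-linked in mice and known to escape X inactivation, and lsNM-R 4 was the lone female. Its Kdm5c value of 4110 lay within the range of the 5 male NM-Rs (between 3291 and 4206), and so did its Kdm6a value of 1111 (males between 787 and 1459). Kdm6a did not pass between species (-0.13, adjusted p = 0.453), nor did Kdm1b (-0.09) and Kdm3b (0.18), but Kdm3b was 0.23 without ssNM-R 6 (limma adjusted p = 0.0446).

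Of the 12 genes named Kmt or Setd, 2 were higher, 6 lower and 4 did not pass. Setd7, which adds 1 methyl group to H3K4 and to several other proteins, stood at 2402, 2274 and 1956 in mice, 205, 259.7 and 209 in ssNM-Rs and 304, 279 and 250.2 in lsNM-Rs. The mouse mean of 2211 ± 229.8 (SD, n = 3) was 8.81-fold the NM-R mean of 251 ± 38.8 (SD, n = 6), and the log2 fold change of -3.14 ± 0.12 (SE), limma adjusted p = 9.57e-09 had the smallest p of all members. Setd2, the H3K36 trimethylase, stood at 3792, 3546 and 3232 in mice, 2701, 2567 and 2423 in ssNM-Rs and 2569, 2727 and 2456 in lsNM-Rs and was lower (log2 fold change -0.45 ± 0.08 (SE), limma adjusted p = 6.01e-04), as was Setd5 (-0.34) with 3396, 3011 and 2950 in mice, 2563, 2405 and 2027 in ssNM-Rs and 2734, 2688 and 2426 in lsNM-Rs. Setd6, which methylates non-histone proteins, stood at 253, 253 and 310.4 in mice, 428, 378 and 418 in ssNM-Rs and 359, 408 and 427 in lsNM-Rs and was higher (log2 fold change 0.57 ± 0.11 (SE), limma adjusted p = 8.76e-04).

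Of the genes named Kmt2, Kmt2d and Kmt2e were lower. Kmt2d stood at 8600, 8494 and 7279 in mice, 5191, 4630 and 2707 in ssNM-Rs and 5117, 4933 and 3920 in lsNM-Rs (log2 fold change -0.91 ± 0.19 (SE), limma adjusted p = 0.00158), and Kmt2e at 4135, 3866 and 3714 in mice, 2121, 1877 and 1634 in ssNM-Rs and 2268, 2290 and 2137 in lsNM-Rs (log2 fold change -0.93 ± 0.09 (SE), limma adjusted p = 7.59e-06). ssNM-R 6 was again the lowest NM-R for both. Kmt2c ranged from 2887 in ssNM-R 6 to 6304 in ssNM-R 2 and had 0.24 (adjusted p = 0.328), but 0.39 without ssNM-R 6 (adjusted p = 0.0221). Kmt2b (-0.07) and Setd1b (0.0079) did not pass either. Of 8 partners of the MLL-type H3K4 methyltransferase complexes in the table (of 11 listed), 1 was higher, Ash2l at 1.39, and 0 were lower.

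The 2 members named Kmt5, both H4K20 methyltransferases, went apart. Kmt5a, which adds the first methyl group and is known from the cell cycle, stood at 869, 1098 and 1280 in mice, 2024, 1778 and 1666 in ssNM-Rs and 1544, 2194 and 1649 in lsNM-Rs and was higher (log2 fold change 0.75 ± 0.15 (SE), limma adjusted p = 9.87e-04). Kmt5c, which adds the further ones, stood at 953, 1028 and 1017 in mice, 782, 703 and 668 in ssNM-Rs and 631, 547 and 526 in lsNM-Rs and was lower (log2 fold change -0.65 ± 0.09 (SE), limma adjusted p = 9.21e-05). Of 13 methyltransferases with other names 6 were higher and 3 lower, from Nsd1 at -1.69 to Nsd2 at 1.64, both H3K36 methyltransferases.

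Of 9 Prdm genes 1 was higher and 5 lower. Prdm10 stood at 235, 289 and 236 in mice, 503, 480.4 and 344 in ssNM-Rs and 554, 459 and 383 in lsNM-Rs (log2 fold change 0.83 ± 0.16 (SE), limma adjusted p = 8.70e-04). Prdm16, known from brown fat and blood stem cells, stood at 98.3, 70.7 and 92.3 in mice, 54.7, 28.5 and 34.8 in ssNM-Rs and 26.8, 18.3 and 42.6 in lsNM-Rs (log2 fold change -1.39 ± 0.30 (SE), limma adjusted p = 0.00174). The NM-Rs were above the mice in the first and below them in the second. Prdm15 stood at 512, 453 and 433 in mice, 269, 294 and 209.8 in ssNM-Rs and 257, 271 and 230.1 in lsNM-Rs (log2 fold change -0.87 ± 0.13 (SE), limma adjusted p = 1.36e-04), and Prdm4 at 685, 702 and 672 in mice, 602, 485 and 417 in ssNM-Rs and 589, 482 and 458 in lsNM-Rs (log2 fold change -0.45 ± 0.13 (SE), limma adjusted p = 0.00816). Prdm2 was lower at -0.35. Prdm1, the plasma cell factor, stood at 414, 357 and 347 in mice, 315, 498 and 185 in ssNM-Rs and 330.5, 413 and 222 in lsNM-Rs, where NM-Rs spread on both sides of the mice and the log2 fold change of -0.26 (95% interval -0.91 to 0.38) did not pass. Prdm8 had at most 6.90 normalized counts and a log2 fold change of 0.65 (adjusted p = 0.0757), which did not pass, while in lsNM-Rs alone it was 0.96 (limma adjusted p = 0.0324). Prdm6 had at most 12.0, and a change between species was not detectable at this depth.

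A ratio of 2 members in the same spleen does not depend on how the libraries were scaled. Of 18 pairs of related members listed, 11 had both genes in the table, and the difference in log2 ratio between species was tested by an exact 2-sided permutation over spleens, in which 6 against 3 cannot give a p below 0.0238. Of the 11 pairs 9 passed (exact p = 0.0238, adjusted over the pairs 0.0291), each with NM-R and mouse spleens apart. Any pair whose ratios separate the species gives this smallest p. In 72.6% of all genes the species did not overlap, and the share over all gene pairs was not computed. The pairs therefore add no support to the calls of single genes.

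The largest shift was that of Sirt6 over Sirt7, whose log2 ratio was -2.41 ± 0.09 (SD, n = 3) in mice and -5.57 ± 0.28 (SD, n = 6) in NM-Rs, a difference of -3.16. Kat6a over Kat6b was 2.36 ± 0.09 (SD, n = 3) in mice and -0.05 ± 0.20 (SD, n = 6) in NM-Rs, a difference of -2.41. Hdac4 over Hdac5 was -2.04 ± 0.02 (SD, n = 3) in mice and 0.03 ± 0.13 (SD, n = 6) in NM-Rs, a difference of 2.07. In each of these 3 pairs the genes were called in opposite directions, which the ratio restates.

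Dnmt1 over Dnmt3a was 0.75 ± 0.40 (SD, n = 3) in mice and 2.67 ± 0.17 (SD, n = 6) in NM-Rs, so the maintenance enzyme gained on the de novo enzyme by 1.92 on the log2 scale. Kdm5a over Kdm5c shifted by -1.72, Tet2 over Tet3 by 1.62, Kdm6a over Kdm6b by -1.50 and Sirt3 over Sirt5 by -0.33. Sirt1 over Sirt2 (-0.31, exact p = 0.0714, adjusted 0.0714) and Brd7 over Brd9 (0.47, exact p = 0.0476, adjusted 0.0524) did not pass.

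**Figure D3:**
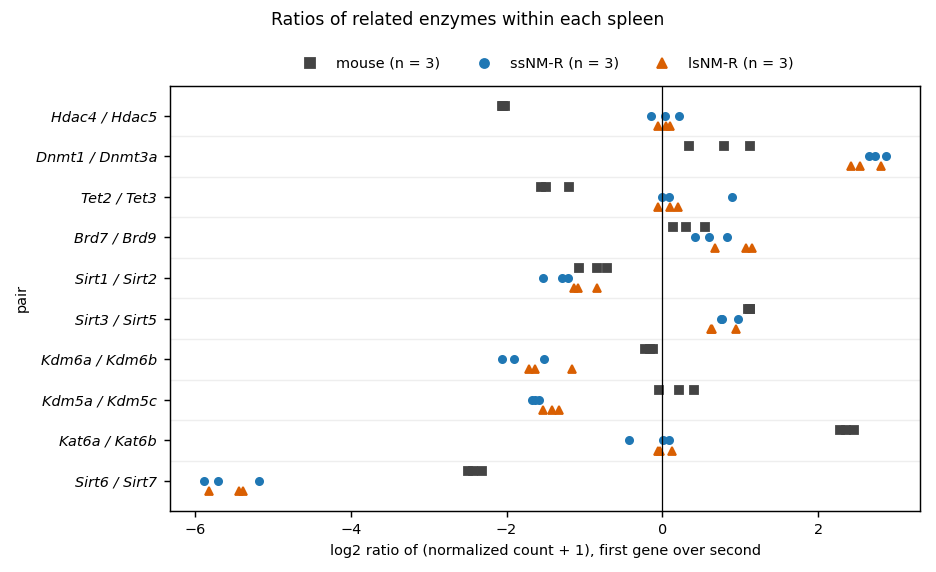
Log2 ratio of the normalized counts (plus 1) of 10 pairs of related enzymes within each of 9 spleens, with squares for mice, circles for ssNM-Rs and triangles for lsNM-Rs. Sirt6 over Sirt7 lies near -2.41 in mice and -5.57 in NM-Rs, and mice and NM-Rs overlap in Sirt1 over Sirt2 and Brd7 over Brd9.

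NAD, the substrate of sirtuins, has its own set of genes. Of 13 in the table (of 15 listed) 3 were higher and 7 lower, where 39.7% and 38.8% of all genes were called. Naprt, which makes NAD from nicotinic acid, was the highest at 3.45, with a normalized count of 125 ± 65.1 (SD, n = 3) in the mice and 1258 ± 96.8 (SD, n = 6) in NM-Rs. Nmnat1, the nuclear NAD synthase, and Nadsyn1, which completes that route, were the other higher genes. Supply genes did not all go this way. Qprt was lower at -3.34 (limma adjusted p = 1.00e-05), and Nmrk1 (-0.57, limma adjusted p = 0.0543) and Nmnat3 (0.30, limma adjusted p = 0.235) did not pass. The NAD-consuming enzymes Cd38, Parp1, Parp2 and Bst1 were lower at -1.83, -0.78, -0.91 and -2.34, and Cd38 is also a surface protein of lymphoid cells. The consumer Sarm1 did not pass (-0.23, limma adjusted p = 0.495). The lowest called value was that of Nmnat2 at -5.02, a fitted value that depends on the added 1, since it rests on a mean of 40.9 normalized counts in the mice and of 0.355 in the NM-R spleens, and Nnmt was at 0 in all NM-R spleens. Nampt is not listed under that symbol and was not analysed here.

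Between lsNM-Rs and ssNM-Rs 0 of the 67 members passed (smallest adjusted p = 0.445, for Kmt5c), and over all genes the share was 0% as well. At an unadjusted p under 0.05 there were 7 members, where 8.79% of all genes were below that value, and in 8 members the cohorts did not overlap, as in 13.1% of all genes. DESeq2 and edgeR on the recovered reads also called 0 members, with 6 and 7 at an unadjusted p under 0.05, while DESeq2 called 54 and edgeR 0 of all genes. With a term for depth class limma called 0 members and 0 of all genes. It then gave 12 members and 1669 of all genes an unadjusted p under 0.05, and the smallest adjusted p of a member was 0.158, for Kdm7a.

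The 10 members with the smallest p are described by their values. Kmt5c stood at 782, 703 and 668 in ssNM-Rs and 631, 547 and 526 in lsNM-Rs, with every lsNM-R below every ssNM-R and a log2 difference of -0.34 (95% interval -0.57 to -0.10, limma adjusted p = 0.445). Hdac9 stood at 235, 165 and 165 in ssNM-Rs and 301, 279 and 211 in lsNM-Rs, a difference of 0.49 (95% interval 0.09 to 0.88) with overlap. Kdm7a stood at 531, 552 and 341 in ssNM-Rs and 727, 630.4 and 579 in lsNM-Rs, a difference of 0.47 (95% interval 0.08 to 0.86), which was 0.25 without ssNM-R 6. In Kdm7a and Kmt2e all lsNM-Rs were higher, whereas in Kmt5c, Kat2a, Kat5, Kat7, Kdm8 and Sirt2 all were lower. The log2 differences of the rest were 0.26 for Kmt2e, 0.31 for Setd7, -0.22 for Kat2a, -0.25 for Kat5, -0.20 for Kat7, -0.20 for Sirt2 and -0.28 for Kdm8.

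**Figure D4:**
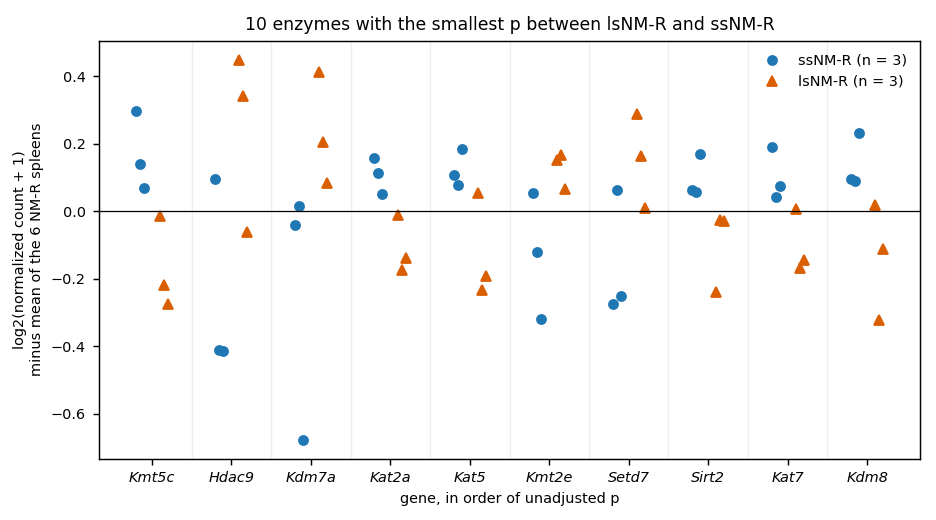
For the 10 enzymes with the smallest p between cohorts, the log2 normalized count (plus 1) of each NM-R spleen minus the mean of the 6 NM-R spleens, with circles for ssNM-Rs and triangles for lsNM-Rs. Differences between cohort means stay between -0.34 and 0.49, and 0 of the 10 passed the threshold.

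Single spleens stood apart among the members. Besides the low values of ssNM-R 6, ssNM-R 2 held the highest NM-R value for 24 of the 67 members. Over 53 members with a mouse transcript length and a mean of at least 10 normalized counts, the log2 difference of ssNM-R 6 from the other NM-Rs had a Spearman correlation of -0.565 with the length of the longest mouse transcript, and -0.295 over 9291 genes of the table. In lsNM-R 1 the correlations were 0.310 and 0.183. Mouse 3 held the lowest mouse value for 37 members, with correlations of -0.347 and -0.319. The genes of a spleen share its library, so these are descriptions. Their part in the results was not tested, but without ssNM-R 6 the counts against mice were 23 higher and 27 lower.

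**Figure D5:**
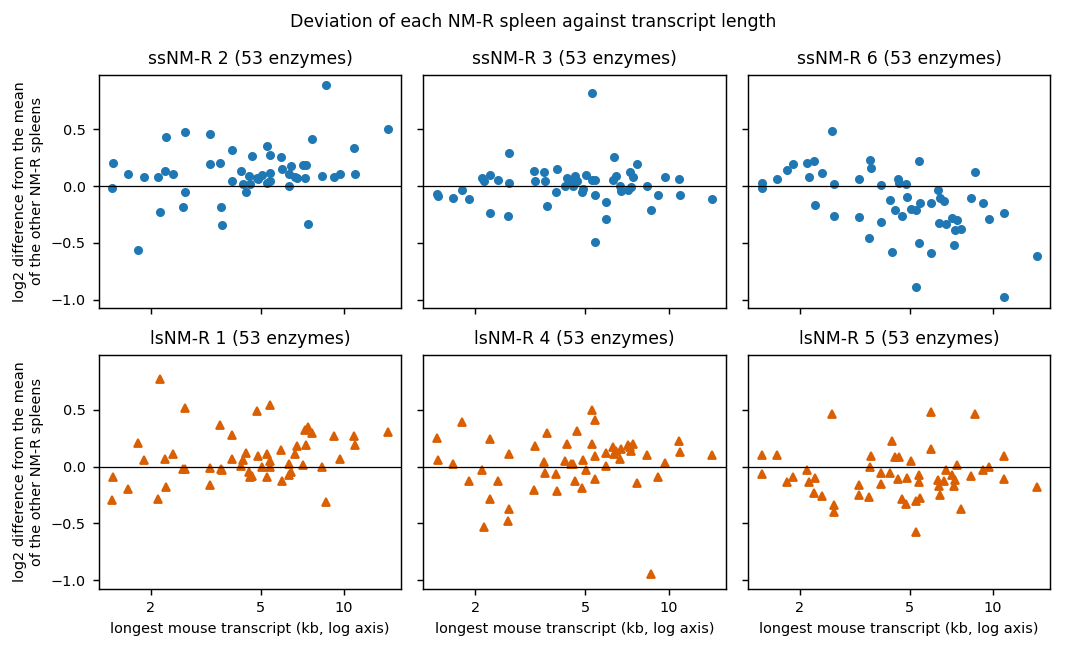
For each of the 6 NM-R spleens, the log2 difference of 53 enzymes from the mean of the other NM-R spleens against the longest mouse transcript of the gene (kb, log axis). In ssNM-R 6 the points fall with length (Spearman -0.565), and in ssNM-R 3 they stay level (0.0520).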

How the data were processed

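Spleen RNA of 3 mice, 3 ssNM-Rs and 3 lsNM-Rs was analysed, grouped by organism and spleen size in the labels. According to the methods and the submitters' processing notes, reads were aligned with STAR 2.5.3a, those of mice to mm9 and those of NM-Rs to an NM-R assembly, then counted per gene with HTSeq 0.10.0. NM-R genes received mouse names. The deposited signal values are those counts after division by a DESeq2 size factor per library, computed by the authors across both species, without length correction. Whole reads could be recovered from 100% of the values of each library. The labels name a stranded mRNA kit and HiSeq, the methods total RNA and NovaSeq, and neither says how strand was treated in counting.

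The main test was limma 3.58.1 (R 4.3.3), run on log2(normalized count + 1) with a mean for each of the 3 groups, all 9 spleens, a variance trend and p-values that were 2-sided and adjusted (Benjamini-Hochberg) over 12946 genes, with a threshold of 0.05. The spread was estimated jointly for the 3 groups. Folds are ratios of mean normalized counts. Ratios of members were tested with scipy 1.17.1. Alternatives included edgeR 4.0.16 and DESeq2 1.42.0 on the recovered reads, pseudocounts of 0.5 and 5, other scalings, a minimum mean of 10, a depth class term, a block for replicate numbers, and fits without single spleens. The fits were tested on simulated data.

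Every Sirt, Dnmt, Tet and Ezh gene is described, in other families up to 3 highest and 3 lowest called members with a mean of at least 50 in the higher species, then the 10 members with the smallest p between cohorts and the members of the pairs. Other genes of a list are named by their extremes or after their values were seen. The members and lists were chosen with earlier results of these data known. Positions and promoter windows are those of mouse genes in mm9 (GENCODE M1), matched by symbol for 55 of 67 members. Some genes and pairs that enter the counts are not reported here by name or value.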

Additional observations from a re-analysis of the deposited data

Results flagged for a closer look

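In 3 of the 67 members 1 NM-R spleen lay far from the other 5 on the log2 scale, by the ratio of its gap to the whole range (above Dixon's 95% critical value for 6 samples), and each time it was the low spleen ssNM-R 6. The DNA methyltransferase Dnmt3a was at 830.4 normalized counts there (ratio 0.708), the demethylase Kdm1b at 364 (ratio 0.746) and the cytosine oxidase Tet3 at 439.8 (ratio 0.795). About 1 group in 20 is marked in this way by chance. Without ssNM-R 6 the log2 fold change between NM-R and mouse was -0.92 for Dnmt3a and -1.73 for Tet3, both still past the threshold, and -3.3e-04 for Kdm1b, which did not pass with or without it.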

How the results depend on the processing

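Of 49 members called between NM-R and mouse, 46 kept direction and call under every alternative that gave a value, Sirt2 and Prdm2 being among the exceptions. Without 1 spleen at a time, members higher lay between 21 and 23 and members lower between 25 and 28. Prdm2 lost its call with the depth class term and without mouse 2 (adjusted p = 0.0779 and 0.0624). The depth class term also brought Kmt2c (0.53, limma adjusted p = 0.0243), Setd1b (0.26, limma adjusted p = 0.0350) and Kat7 (0.25, limma adjusted p = 0.0351) past the threshold. Quantile normalization did so for Brd2 (-0.17, limma adjusted p = 0.0369), and the same upper quartile for Kdm3b (0.28, limma adjusted p = 0.0192). Directions turned only in members that were not called. Prdm6, at -0.0020, became 0.79 with DESeq2, 0.97 with edgeR, 0.14 with pseudocount 5, 0.073 with the same upper quartile, and between -0.62 and 0.31 without single spleens. Kdm1b became 0.011 with the depth class, 0.0014 with quantile normalization and 0.020 with the upper quartile. Kmt2b became 0.047 and 0.039 with the depth class and the upper quartile, Prdm1 0.042 with the depth class, Hdac8 0.020 with quantile normalization, Hdac7 -0.0021 with the same total, Brd2 0.059 with the upper quartile, and Setd1b -0.046 with the same total and between -0.068 and 0.10 without single spleens. The upper quartile scaling moved the median of all genes to 0.11 from 0.0097. The number of pairs past the threshold was between 0 and 10 without single spleens, and 0 without any 1 mouse, where 6 against 2 spleens cannot give an exact p below 0.0714. Mouse and NM-R spleens with the same number in their titles had correlations of deviations of -0.0045, 0.00076 and 0.010. Such correlations cannot show whether these spleens were handled together. The replicate block gave 23 members higher and 27 lower. A fit of only the groups compared gives no other value for NM-R against mouse, since all groups are in it. Prdm6 and Prdm8 rest on few reads.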
